A study of Mus musculus with 45 samples.

Results

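Microglia are the resident macrophages of the brain, and 9 genes that mark these cells or their phagocytic work were followed in the nucleus accumbens of mice that drank alcohol or water. The genes were Aif1, Cx3cr1, P2ry12, Tmem119, Csf1r, Trem2, Tyrobp, Ctss and Cd68. They were taken by symbol, as the rows of the deposited count files that carry these names. That rule uses no measured value, but the genes were chosen with earlier results of these data known. All 9 were listed among 24421 gene symbols, and all 9 remained among the 15852 genes tested after a filter on low counts.

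Microglia depend on signals from neurons and glia through surface receptors. Csf1r carries the survival signal of the cytokines Csf1 and Il34, Cx3cr1 binds the neuronal chemokine Cx3cl1, and P2ry12 senses nucleotides released by active or injured cells. Material that is engulfed is recognised by receptors such as Trem2, which signals through the adaptor Tyrobp, and is broken down in lysosomes, where the protease Ctss and the membrane protein Cd68 lie. P2ry12 and Tmem119 are high in resting microglia, while Aif1, Csf1r, Cx3cr1, Trem2, Tyrobp, Ctss and Cd68 are also made by other macrophages, those at the borders of the brain included.

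All 45 mice were females of the HDID-1 line, which was selectively bred for high blood alcohol after drinking in the dark. Every mouse, controls included, received rAAV2/5-CMV-Cre-GFP and rAAV2-hSyn-DIO-hM3Dq-mCherry (0.5 uL each) bilaterally into that region, so no group was free of virus. hM3Dq is an engineered Gq-coupled receptor activated by clozapine N-oxide (CNO), and hSyn is a promoter used to drive expression in neurons. Fluid was offered by the drinking-in-the-dark schedule for 6 weeks. Week 1 was a vehicle week, weeks 2 to 5 brought CNO at 1 mg/kg or vehicle, and week 6 was again a vehicle week. The groups were alcohol CNO (n = 12), alcohol vehicle (n = 11), water CNO (n = 11) and water vehicle (n = 11), each library being 1 mouse. RNA was taken after the last vehicle week, so these are levels after CNO had ended.

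Each library held between 26.8 M and 39.5 M reads in genes, and every member had at least 174 reads in every library. The 10 markers of medium spiny neurons, the main neurons of this region, were all tested and summed to between 4722 and 7745 CPM (reads per M reads in genes) in each library. The 5 markers of cortical glutamatergic neurons summed to between 50.7 and 820 CPM, so the punches were not alike in cortical transcripts. The part of these transcripts in the comparisons of the members was not tested. Tube numbers in the sample titles run through the alcohol drinkers first and the water drinkers after them, so tube order and fluid cannot be told apart. In whole tissue, fewer cells of a type and less RNA per cell cannot be told apart either.

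The promoters of Ctss and P2ry12 are shown because these genes lay at opposite ends of the CNO comparison and of the relation to interferon-induced genes described further on. Each is 300 bases of RefSeq sequence on GRCm38.p6, from 250 before to 50 after the annotated start, read 5' to 3' on the gene's strand. The Ctss promoter is chr3:95526536-95526835 on the plus strand and that of P2ry12 is chr3:59262936-59263235 on the minus strand. Capitals mark matches, on either strand, to AGGAAGT, bound by the myeloid factor PU.1, and to GAAANNGAA, the core of the interferon-stimulated response element (ISRE).
Ctss: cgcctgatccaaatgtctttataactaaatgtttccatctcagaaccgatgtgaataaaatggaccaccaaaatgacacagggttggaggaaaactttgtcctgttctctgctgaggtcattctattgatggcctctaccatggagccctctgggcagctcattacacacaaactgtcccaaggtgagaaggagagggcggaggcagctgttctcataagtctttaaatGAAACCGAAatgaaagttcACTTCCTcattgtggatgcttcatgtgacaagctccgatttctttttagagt
P2ry12: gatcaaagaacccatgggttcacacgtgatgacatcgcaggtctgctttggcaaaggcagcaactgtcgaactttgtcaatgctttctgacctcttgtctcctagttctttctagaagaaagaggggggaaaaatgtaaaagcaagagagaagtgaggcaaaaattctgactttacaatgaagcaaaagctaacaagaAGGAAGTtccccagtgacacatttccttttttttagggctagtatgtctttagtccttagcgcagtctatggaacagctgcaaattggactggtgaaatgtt
Ctss held the ISRE core from position -21 relative to its start, and AGGAAGT on the other strand from position -2. P2ry12 held AGGAAGT from position -52 and no ISRE core. Positions count from the RefSeq start. For P2ry12 the whole window lies outside the gene as GENCODE M21 places it, up to 59262871. Of the 6 members with a promoter in the table (Aif1, Cx3cr1, P2ry12, Trem2, Ctss and Cd68), 2 held AGGAAGT, 2 held the ISRE core (Ctss, and Aif1 from position -157) and 0 held TTCNNNGAA, the gamma-activated site. Among all 32851 promoters of the table, 9.35% held AGGAAGT, 8.56% the ISRE core and 8.3% TTCNNNGAA, so the counts among 6 genes are descriptions of letters and nothing more.

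Before the groups are compared, the libraries themselves differed. Alcohol vehicle replicate 5 had the highest level of all 45 libraries for 8 of the 9 genes, and the second highest for Cd68. Alcohol vehicle replicate 10 was second for 7 genes, and water vehicle replicate 9 was among the 5 highest for 7. At the other end, water CNO replicate 7 was among the 5 lowest libraries for 7 genes and water CNO replicate 9 for 6. For each tested comparison of the members below that uses alcohol vehicle mice, values without replicates 5 and 10 are therefore given as well. All levels were scaled by TMM, and a gene is called where its Benjamini-Hochberg adjusted p, over all 15852 genes, is under 0.05.

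**Figure D1:**
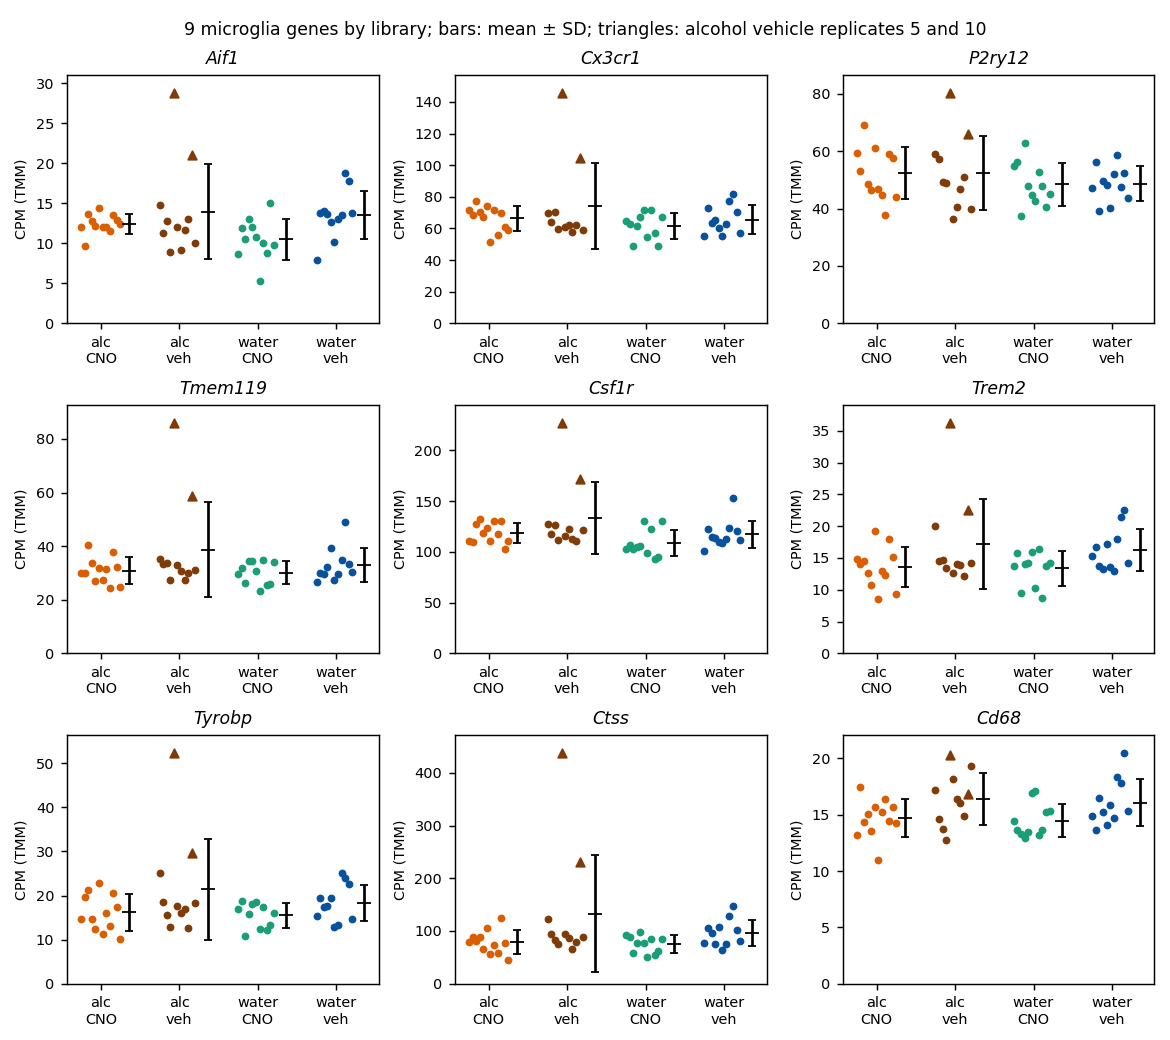
CPM after TMM scaling of each gene (vertical axes, from 0) in every library of the 4 groups, with the group mean ± SD beside the points and alcohol vehicle replicates 5 and 10 as triangles. The groups overlap for all 9 genes, and the triangles lie above every other point of Ctss, at 437 and 232 CPM.

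Csf1r (GRCm38, chromosome 18, 61100598 to 61132149, plus strand), the receptor for Csf1 and Il34, had the highest median CPM of the 9 genes. In alcohol drinkers it ran from 103 to 132 CPM with CNO (median 118) and from 111 to 227 with vehicle (median 122). In water drinkers it ran from 93.3 to 131 CPM with CNO (median 105) and from 101 to 153 with vehicle (median 114). The 4 ranges overlapped, and the top values of both vehicle groups belonged to alcohol vehicle replicate 5 and water vehicle replicate 9. Exons of Csf1r overlap those of Hmgxb3 on the opposite strand, and the counting strand is not given in the sources used here.

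Cx3cr1 (chromosome 9, 119901616 to 120069879, minus strand), the fractalkine receptor, varied little apart from the same libraries. Its medians were 69.1 CPM in alcohol CNO mice (range 51.2 to 77.4) and 62.3 in alcohol vehicle mice (57.7 to 146). In water drinkers the medians were 62.5 CPM with CNO (48.7 to 71.9) and 63.8 with vehicle (55.3 to 82.0). With replicates 5 and 10 left out, the alcohol vehicle range closed to between 57.7 and 70.4 CPM, inside that of the alcohol CNO mice.

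P2ry12 (chromosome 3, 59216272 to 59262871, minus strand), the nucleotide receptor of resting microglia, had nearly equal group levels. Alcohol drinkers averaged 52.3 CPM ± 9.06 (SD, n = 12) after CNO and 52.4 ± 12.8 (n = 11) with vehicle, with ranges of 37.8 to 69.0 and 36.4 to 80.3. Water drinkers averaged 48.5 CPM ± 7.60 (n = 11) with CNO and 48.7 ± 6.13 (n = 11) with vehicle, with ranges of 37.2 to 62.8 and 39.2 to 58.6. Water vehicle replicate 9, among the highest libraries for other members, ranked 27 of 45 for P2ry12. Its exons overlap those of Med12l on the opposite strand, and those of Cx3cr1 overlap Gm33858, so reads of these pairs may not have been separated.

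Trem2 (chromosome 17, 48346401 to 48354147, plus strand), a receptor for lipids and cell debris, was among the lower members. It ran from 8.62 to 19.2 CPM in alcohol CNO mice (median 13.6) and from 12.2 to 36.2 in alcohol vehicle mice (median 14.2). In water drinkers it ran from 8.68 to 16.5 CPM with CNO (median 14.1) and from 12.9 to 22.5 with vehicle (median 15.3). In both fluids the lowest vehicle library stood above the lowest CNO libraries, while the medians were close.

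Tyrobp (chromosome 7, 30413760 to 30417585, plus strand), the adaptor that Trem2 signals through, showed a like pattern. Its levels were 10.1 to 22.9 CPM in alcohol CNO mice (median 15.4) and 12.6 to 52.3 in alcohol vehicle mice (median 17.7). Water drinkers had 10.9 to 18.7 CPM with CNO (median 15.9) and 13.0 to 25.0 with vehicle (median 17.6). Without replicates 5 and 10 the highest alcohol vehicle library was at 25.0 CPM, the same as the top of the water vehicle group.

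Aif1 (chromosome 17, 35170991 to 35176068, minus strand) encodes Iba1, the calcium-binding protein by which microglia are commonly stained. It was at 9.65 to 14.4 CPM in alcohol CNO mice (median 12.3) and 8.92 to 28.8 in alcohol vehicle mice (median 12.1). In water drinkers it was at 5.27 to 15.0 CPM with CNO (median 10.5) and 7.86 to 18.8 with vehicle (median 13.6). Of 11 water CNO libraries, 10 lay below the water vehicle median. In alcohol drinkers 4 of 12 CNO libraries lay below the vehicle median.

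Tmem119 (chromosome 5, 113793729 to 113800516, minus strand), a membrane protein used to tell microglia from other macrophages, ran from 24.3 to 40.4 CPM in alcohol CNO mice (median 30.7). In alcohol vehicle mice it ran from 27.3 to 85.9 CPM (median 32.9), and to only 35.1 once replicates 5 and 10 were left out. Water drinkers had 23.3 to 34.9 CPM with CNO (median 30.7) and 26.8 to 49.0 with vehicle (median 30.4).

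Ctss (chromosome 3, 95526786 to 95556403, plus strand) encodes the lysosomal cysteine protease cathepsin S, which also trims the invariant chain for antigen presentation. It varied most over all 45 libraries, its highest being 9.68 times its lowest, against 1.86 times for Cd68. Without alcohol vehicle replicates 5 and 10, Aif1 spanned more relative to its level (5.27 to 18.8 CPM) than Ctss (45.2 to 147 CPM). In alcohol CNO mice Ctss ran from 45.2 to 126 CPM (median 78.8), and in alcohol vehicle mice from 65.3 to 437 (median 88.5). In water drinkers it ran from 51.0 to 98.5 CPM with CNO (median 77.2) and from 64.5 to 147 with vehicle (median 96.1). Of the CNO libraries, 9 of 12 in alcohol drinkers and 10 of 11 in water drinkers lay below the median of their vehicle group. The mean ± SD of the alcohol vehicle group was 133 ± 111 CPM (n = 11), and 87.7 ± 16.4 (n = 9) without replicates 5 and 10.

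Cd68 (chromosome 11, 69664213 to 69666153, minus strand), a heavily glycosylated protein of lysosomal membranes, had the lowest ratio of highest to lowest library. Without alcohol vehicle replicates 5 and 10, Csf1r spanned less relative to its level (93.3 to 153 CPM) than Cd68 (11.0 to 20.5 CPM). Cd68 ran from 11.0 to 17.4 CPM in alcohol CNO mice (median 14.7) and from 12.8 to 20.3 in alcohol vehicle mice (median 16.4). In water drinkers it ran from 13.0 to 17.1 CPM with CNO (median 13.7) and from 13.7 to 20.5 with vehicle (median 15.3). In alcohol drinkers 11 of 12 CNO libraries lay below the vehicle median, and in water drinkers 9 of 11. Its highest library was water vehicle replicate 10 rather than alcohol vehicle replicate 5.

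For each of the 9 genes the group means were highest in alcohol vehicle mice and lowest in water CNO mice, with ranges that overlapped between all groups. Without replicates 5 and 10 the alcohol vehicle mean was the highest for 0 of the 9 genes, and for P2ry12 (47.7 CPM) it lay below that of water CNO mice (48.5 CPM). Per kilobase of principal transcript, the scale on which genes can be set side by side, Ctss stood highest with a median of 60.5 CPM per kb over the 45 libraries. Tyrobp followed at 29.9 CPM per kb, Csf1r at 24.4 and P2ry12 at 20.7. The other 5 genes lay between 12.4 (Cd68) and 14.3 (Cx3cr1).

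CNO was compared with vehicle to see whether weeks of CNO left a difference in these genes. Every mouse had received the hM3Dq virus, so activation of that receptor and other effects of CNO cannot be told apart. None of the 9 genes was called by edgeR, DESeq2 or voom. Averaged over fluids, all 9 fold changes lay below 0, led by Ctss at a log2 fold change of -0.55 ± 0.16 (SE; adjusted p = 0.109). Tyrobp (-0.32, adjusted p = 0.317), Trem2 (-0.31, adjusted p = 0.215) and Aif1 (-0.26, adjusted p = 0.367) came next, and P2ry12 lay at -0.0038 (95% interval -0.15 to 0.15). Of all genes tested, 0.889% were called in this contrast, 137 lower and 4 higher. At an unadjusted p under 0.05 stood 7 of the 9 members, against 9.3% of all genes, and their median log2 fold change was -0.23 against 0.000139 over all genes. Members share cells and libraries, so this is a count and not a test. With alcohol vehicle replicates 5 and 10 left out, Ctss was at -0.26 (adjusted p = 0.629), Trem2 at -0.19, Tyrobp at -0.16, Aif1 at -0.13 and P2ry12 at 0.061. In that fit 8 of the 9 lay below 0 and 3 had an unadjusted p under 0.05. With water vehicle replicate 9 out as well, 7 lay below 0 and 2 had such a p. Over all genes such a p was reached by 1030 of 15910 in the former fit and 813 of 15895 in the latter.

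In alcohol drinkers the 9 fold changes also lay below 0, with 0 called against a background of 0.871% of genes called lower. Ctss was at -0.75 ± 0.23 (95% interval -1.21 to -0.29; adjusted p = 0.128), Tyrobp at -0.40, Trem2 at -0.34 and Tmem119 at -0.33. These 4 and Cd68 (-0.16) had an unadjusted p under 0.05, as did 7.32% of all genes. Without alcohol vehicle replicates 5 and 10, Ctss was at -0.15 (95% interval -0.45 to 0.15), and 4 genes lay above 0: P2ry12 (0.13), Aif1 (0.12), Cx3cr1 (0.083) and Csf1r (0.0069). Leaving out replicate 5 alone put Ctss at -0.37 and the number of genes called in the whole table at 0. Cd68 was at -0.11 without both.

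In water drinkers, a difference that uses no alcohol vehicle mouse, the 9 fold changes again lay below 0 and 0 were called, against 0.0694% of all genes. Aif1 (-0.36) and Ctss (-0.36) were furthest from 0, followed by Trem2 (-0.28) and Tyrobp (-0.24), and P2ry12 was nearest (-0.0062). An unadjusted p under 0.05 was reached by Aif1 and Cd68 (-0.15), and by 5.54% of all genes. With alcohol vehicle replicates 5 and 10 left out of the shared fit the fold changes moved little. In that fit 5 of the 9 had an unadjusted p under 0.05, as did 1101 of 15910 genes. The smallest adjusted p of a member there was 0.358 (Aif1). With water vehicle replicate 9 out as well, 1 of 9 members and 789 of 15895 genes had an unadjusted p under 0.05. The 95% interval of Cx3cr1 ran from -0.33 to 0.14.

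**Figure D2:**
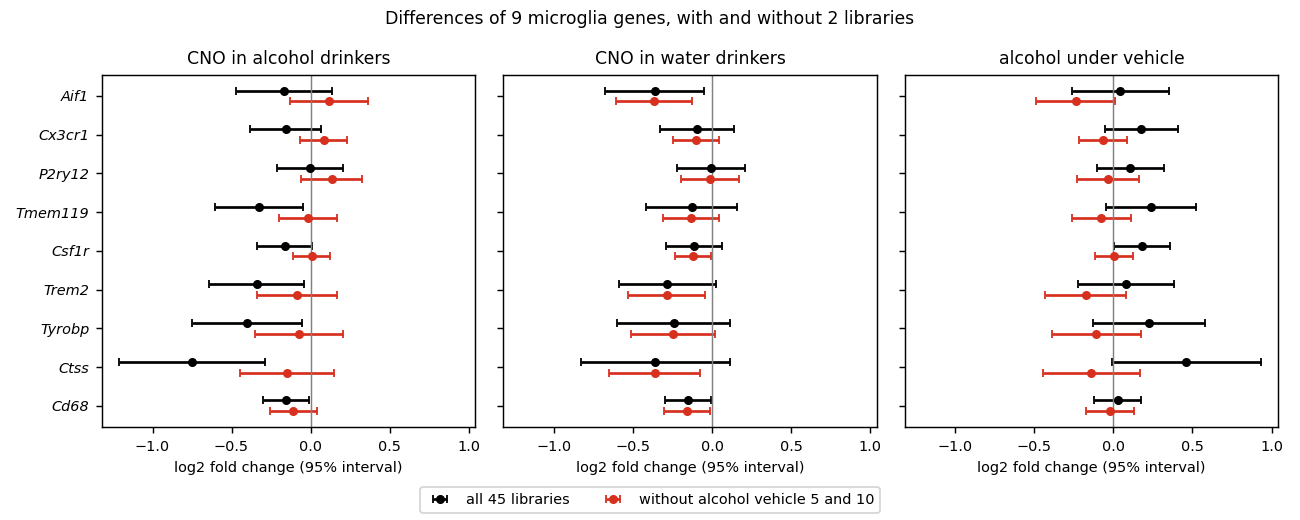
Log2 fold changes with 95% intervals (horizontal axis) of the 9 genes for CNO against vehicle in alcohol drinkers, the same in water drinkers, and alcohol against water under vehicle; black, all 45 libraries, red, without alcohol vehicle replicates 5 and 10. Ctss moves from -0.75 to -0.15 in the left panel, while the middle panel keeps its values.

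Alcohol was compared with water under each treatment. Under vehicle the 9 fold changes lay above 0, with a median of 0.18 on the log2 scale, and 0 were called, as were 0% of all genes (8.36% had an unadjusted p under 0.05). This comparison shares its alcohol vehicle mice with that of CNO in alcohol drinkers. Ctss had the largest, 0.46 (95% interval -0.011 to 0.93; adjusted p = 0.607), and Csf1r (0.18) alone had an unadjusted p under 0.05. Without replicates 5 and 10, 8 of the 9 lay below 0, and Ctss was at -0.14. Under CNO the 9 fold changes lay between 0.022 and 0.24, with 0 called among the members and 0% of all genes (6.5% at an unadjusted p under 0.05). Averaged over treatments 0 were called as well, with 0% of all genes (12% at an unadjusted p under 0.05), and Csf1r was at 0.15 (adjusted p = 0.325). Without replicates 5 and 10, Csf1r was at 0.069 in that average (adjusted p = 0.459), and 4 of the 9 lay below 0.

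The interaction asks whether CNO acted differently in the 2 fluids. No member was called and 0% of all genes were, with 3.13% at an unadjusted p under 0.05. Ctss was at -0.39 (95% interval -1.05 to 0.27), P2ry12 at 0.0048 (-0.29 to 0.30), and no member had an unadjusted p under 0.05. Without replicates 5 and 10, the 9 interaction values all lay above 0, and Aif1 (0.48, 95% interval 0.14 to 0.83) had an unadjusted p under 0.05, its adjusted p being 1.

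Levels of the members varied together from mouse to mouse. After each group's mean was taken away, the 36 pairs had Pearson correlations of log2 CPM over 45 libraries between -0.020 (P2ry12 with Cd68) and 0.92 (Tmem119 with Ctss), with a median of 0.69. Trem2 and its adaptor Tyrobp had r = 0.92 (Spearman's rho 0.90), and r = 0.88 without the 2 libraries farthest from the median. The correlation of each gene with the mean of the other 8 was highest for Ctss (0.94), Tyrobp (0.93) and Tmem119 (0.92), and lowest for P2ry12 (0.67) and Cd68 (0.37). Without alcohol vehicle replicates 5 and 10 the median over pairs was 0.53, and within 8 blocks of consecutive S numbers it was 0.65. The titles give only the S numbers. The blocks were inferred from them and may not be sequencing batches. Within each point both genes come from the same tissue punch and library, so the correlations are descriptions of these libraries.

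**Figure D3:**
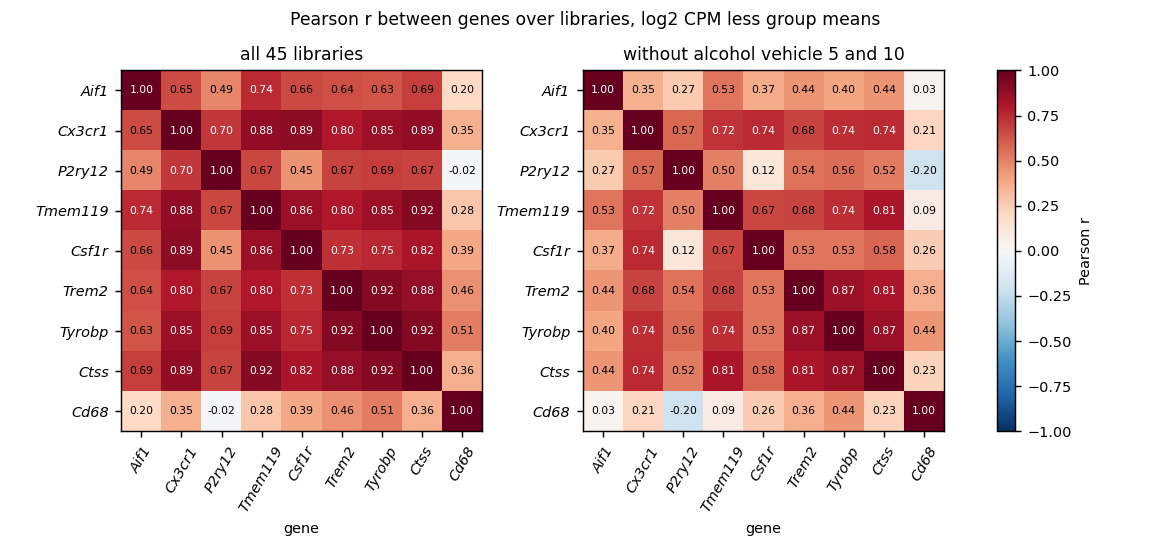
Pearson r between the 9 genes over libraries, from log2 CPM less the group means, with all 45 libraries (left) and without alcohol vehicle replicates 5 and 10 (right). Tyrobp, Trem2, Ctss, Cx3cr1 and Tmem119 form the darkest block, and the Cd68 row is the palest.

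The 10 genes most like the mean of the members over the 45 libraries had r from 0.93 to 0.96, and Ly86, Ctsz, Ctsh, Fcer1g, C1qa, Cd86, Lyn, Itgb5 and Vav1 were among them. Of the 10, 6 are in the lists used here for microglia, Trem2-Tyrobp signalling, complement, phagocytosis or lysosome genes. Among these are the cathepsins Ctsz and Ctsh, the Fc receptor chain Fcer1g, the complement subunit C1qa and Vav1. Each such list held between 5 and 18 of the 15852 genes tested. The median r over all other genes was -0.013. Without alcohol vehicle replicates 5 and 10, 8 of the 10 were again among the 10 most alike, and Ly86 was first in both (r = 0.90).

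Across libraries, members differed in how they followed interferon-induced genes. The mean log2 CPM of 16 such genes, among them Irf7, Isg15 and Cxcl10, was highest in water vehicle replicate 9 (4.81), alcohol vehicle replicate 10 (4.77) and alcohol vehicle replicate 5 (4.63). With group means removed, Ctss had r = 0.69 with that mean (rho 0.67; permutation p = 1e-05, the smallest these permutations can give; adjusted over 54 relations 2.7e-05), and 0.63 without the 2 farthest libraries. For P2ry12 r was 0.19 (rho 0.12; permutation p = 0.272, adjusted 0.288). The other 7 had r between 0.45 (Cd68) and 0.66 (Csf1r). Leaving out alcohol vehicle replicates 5 and 10, r was 0.51 for Ctss and -0.13 for P2ry12. Within S-number blocks it was 0.77 and 0.36.

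**Figure D4:**
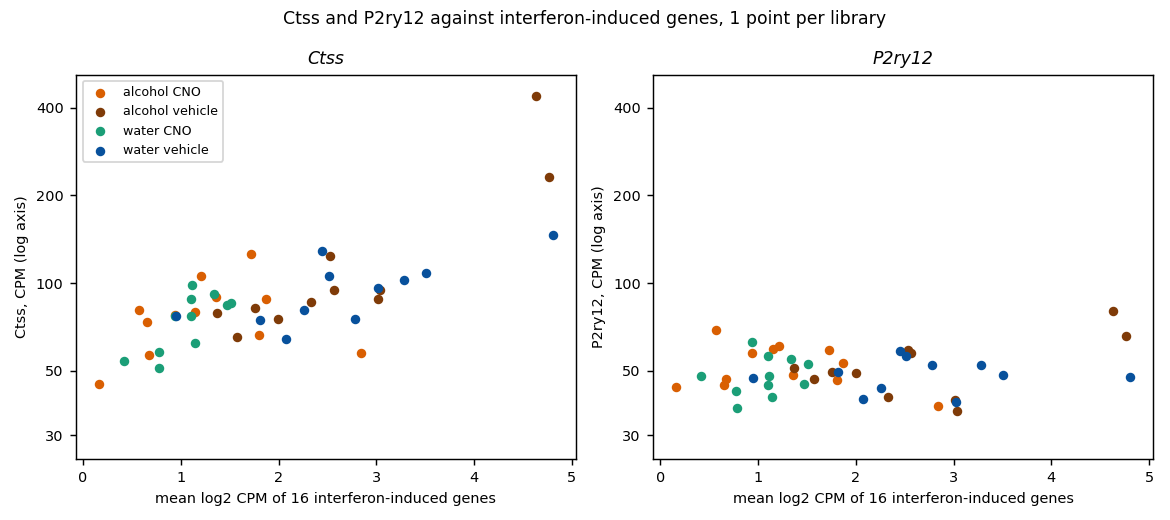
CPM of Ctss (left) and P2ry12 (right) on log axes against the mean log2 CPM of 16 interferon-induced genes, 1 point per library, coloured by group. The 3 libraries on the far right are water vehicle replicate 9 and alcohol vehicle replicates 10 and 5, at 147, 232 and 437 CPM of Ctss.

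The share of reads that HTSeq gave no feature was a second measure that members followed unequally. It ran from 15.6% to 21.9% of the reads in genes, ambiguous or without a feature. P2ry12 had r = -0.70 with it (rho -0.76; permutation p = 1e-05, adjusted over 54 relations 2.7e-05) and Tyrobp r = -0.41 (rho -0.47; permutation p = 0.00354, adjusted 0.0049). Cd68 had r = 0.28 (rho 0.26; permutation p = 0.0719, adjusted 0.0809). Within S-number blocks r was -0.54 for P2ry12 and -0.13 for Tyrobp. The share was also added to the fit, where 0 members were called, as in the main fit. The smallest adjusted p was 0.0839 (Ctss, CNO averaged over fluids). For CNO in alcohol drinkers 2 members had an unadjusted p under 0.05 with the share and 5 without it. Of all 15852 genes, 1579 and 1161 had such a p, and 19 and 138 were called. In water drinkers 3 and 2 members had such a p, and averaged over fluids 7 and 7.

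Other genes of the same pathways were described from lists, by their calls for CNO averaged over fluids. Of 5 ligands of member receptors 0 were called: Csf1 was at a log2 fold change of -0.14 and Apoe, a lipid carrier that Trem2 binds, at -0.098. Of 5 microglial transcription factors 0 were called, with Irf8 at -0.47 (adjusted p = 0.136) and Spi1, which encodes PU.1, at -0.29. Of 5 tested genes of Trem2-Tyrobp signalling 0 were called, Plcg2 being at -0.35 and Vav1 at -0.37. Of 12 other homeostatic microglia genes 0 were called, although Slc2a5, a fructose transporter, lay at 0.44 and the leukocyte phosphatase Ptprc at -0.69. The median of that list was -0.11, and 9 of 12 lay below 0. That median was -0.030, with 7 of 12 below 0, once alcohol vehicle replicates 5 and 10 were out. The median of the transcription factors was -0.29 with all libraries and -0.076 without those replicates, that of Trem2-Tyrobp signalling -0.31 and -0.023, and that of the ligands -0.075 and -0.026.

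Single genes of the engulfment, lysosome, complement and disease-associated lists were called lower for CNO averaged over fluids, where 0.889% of all genes were called. Of 18 phagocytosis genes 2 were called lower, the NADPH oxidase subunit Cybb (-1.62 ± 0.34, adjusted p = 0.00538) and the Fc receptor Fcgr4 (-1.41 ± 0.34, adjusted p = 0.0241), and 0 higher. Of 14 lysosomal genes 1 was called, Grn, the precursor of granulins, at -0.25 ± 0.060 (adjusted p = 0.023). Of 5 complement genes C3 was called (-2.18 ± 0.50, adjusted p = 0.014), while C1qa lay at -0.56 (adjusted p = 0.0814). Of 11 genes raised in disease-associated microglia 2 were called lower, Cst7, a cystatin (-2.32 ± 0.42, adjusted p = 0.000785), and the integrin Itgax (-1.33 ± 0.29, adjusted p = 0.00746). Without alcohol vehicle replicates 5 and 10, Cst7 (-1.57, adjusted p = 0.00845) and Grn (-0.17, adjusted p = 0.0421) were again called. Cybb (-0.86, adjusted p = 0.0605), Itgax (-0.89, adjusted p = 0.0747), C3 (-1.02, adjusted p = 0.51) and Fcgr4 (-0.73, adjusted p = 0.41) were not. In that fit 73 of 15910 genes were called. In water drinkers 0 genes of these lists were called, against 0.0694% of all genes, and 0 without those replicates, against 55 of 15910. In alcohol drinkers 2 phagocytosis, 0 lysosomal, 1 complement and 2 disease-associated genes were called lower, against 0.871% of all genes. Without those replicates 0 were, as were 0 of all genes.

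Interferon-induced genes fell with CNO. All 16 were called lower with CNO averaged over fluids, with a median log2 fold change of -1.96, led by the chemokine Cxcl10 (-3.25) and the transcription factor Irf7 (-2.25), and 15 of 16 without replicates 5 and 10 (median -1.44). In alcohol drinkers 13 were called, and 0 without those replicates (median -0.96). Leaving out replicate 5 alone, or adding the S-number block to the fit, left 0 genes of the whole table called in alcohol drinkers. In water drinkers 9 were called, and 15 without them (median -2.0). Without water vehicle replicate 9 alone, 1 gene of the whole table was called in water drinkers. With the S-number block 4 were, and with all 3 vehicle libraries out 13 of the 16 interferon-induced genes were (median -1.62). The 9 members had medians of -0.17 and -0.15 in the same 2 comparisons.

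Markers of monocytes, neutrophils and lymphocytes were highest in the same 2 libraries as the mean of the members, alcohol vehicle replicates 5 and 10. Below these the ranks parted. Water vehicle replicate 9 ranked 3 of 45 for the members, 3 for monocyte and neutrophil markers and 27 for lymphocyte markers. Alcohol vehicle replicate 1 ranked 4 for the members, and 39 and 40 for those lists. Of 4 tested monocyte and neutrophil markers 1 was called lower for CNO averaged over fluids, Plac8 (-1.54, adjusted p = 0.0241), and 0 once alcohol vehicle replicates 5 and 10 were out. Of 4 tested lymphocyte markers 0 were called in that average. In alcohol drinkers 3 of the 4 monocyte and neutrophil markers (median -2.01) and 1 of the 4 lymphocyte markers (median -1.84) were called lower with CNO, and 0 of either list without those replicates. These are the comparisons in which Ctss was at -0.75 and -0.15. Monocyte and neutrophil markers summed to at most 14.6 CPM in alcohol CNO, 66.2 in alcohol vehicle, 4.62 in water CNO and 5.94 in water vehicle mice. Their group medians were 2.13, 3.21, 2.65 and 3.01 CPM in that order. Lymphocyte markers, the antibody joining chain Jchain among them, summed to at most 637 CPM in alcohol vehicle mice and to at most 74.4 in the other groups. Alcohol vehicle replicates 5 and 10 ranked first and second on the mean level of both lists. The monocyte and neutrophil markers S100a8, S100a9 and Chil3 and the lymphocyte markers Cd3e and Ms4a1 had medians below 0.1 CPM over the 45 libraries together. The 9 border macrophage markers summed to between 13.7 and 31.2 CPM over all libraries, 0 of 9 were called for CNO averaged over fluids (Ms4a7 was at -0.96, adjusted p = 0.0538), and on their mean level alcohol vehicle replicate 5 ranked 3 and replicate 10 ranked 34 of 45. The part of these cells in the members' levels was not tested.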

How the data were processed

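RNA from nucleus accumbens punches of 45 mice was sequenced from 500 ng per library with a TruSeq protocol, per the labels. The deposited files hold raw read counts per gene symbol. HTSeq 0.9.1, STAR and FastQC are named with GRCm38 (mm10) per the submitters' processing notes. No STAR version, annotation, strand setting or counting mode is given in the sources used here, so overlapping genes may share reads. HTSeq's 5 summary rows were kept out of library sizes. Reads without a feature made up 15.6% to 21.9% and ambiguous reads 0.52% to 0.61%, out of both and the reads in genes together.

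Groups came from the labels, and replicate numbers follow accession order and pair no mice. Genes were filtered with filterByExpr, scaled by TMM and tested in edgeR 4.0.16 (R 4.3.3; robust quasi-likelihood, 1 coefficient per group, all 45 libraries, 7 contrasts, Benjamini-Hochberg). The SE of a log2 fold change is its size over the root of its F statistic. Log2 CPM took a prior count of 2. Correlations used 100000 permutations within groups, two-sided. The procedure was tested on simulated data. The alternatives included DESeq2 1.42.0 and voom (limma 3.58.1). Lengths, positions and overlaps are from GENCODE M21 and promoters from RefSeq.

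The members, the lists and the alternatives were chosen with earlier results of these data known. The text names the members, the 2 genes of each list with the smallest p for CNO averaged over fluids or any called, and the 10 genes most like the members; a few genes are not reported here. For the interferon-induced, monocyte and neutrophil, lymphocyte and border macrophage lists mainly counts are given, and the neuronal, astrocyte, oligodendrocyte, endothelial and cortical lists had 0 genes called for CNO averaged over fluids.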

Additional observations from a re-analysis of the deposited data

How the results depend on the processing

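No member was called in any contrast under any alternative: median-of-ratios size factors, no filter, a mean CPM of at least 1, DESeq2, voom with sample weights, the S-number block or the no-feature share as a covariate, only the groups compared (run for 4 of the 7 contrasts, those between single groups), the 2 or 3 vehicle libraries left out, and each library left out in turn. The smallest adjusted p of a member was 0.0556 (Ctss for CNO in alcohol drinkers without alcohol vehicle replicate 8) and 0.0579 in DESeq2 (Ctss for CNO averaged). At an unadjusted p under 0.05, 7 members stood for CNO averaged in DESeq2, 3 in voom, 3 without the 2 vehicle libraries and 2 without the 3. Over all genes tested the numbers were 1482, 1679, 1030 and 813 in that order. Values that changed sign were uncalled on both sides, and the cause was not tested. With no filter on low counts the sign of the log2 fold change differed for the interaction (P2ry12 -0.00074). With the no-feature share as a covariate the sign of the log2 fold change differed for CNO in alcohol drinkers (P2ry12 0.078) and for CNO averaged (P2ry12 0.0017). It also differed for alcohol under CNO (Cd68 -0.0099) and for the interaction (Cx3cr1 0.032, Trem2 0.039). With the S-number block as a covariate the sign of the log2 fold change differed for CNO in alcohol drinkers (P2ry12 0.0027) and for the interaction (Cx3cr1 0.036, Trem2 0.0025, Cd68 0.0078). With voom and sample weights the sign of the log2 fold change differed for CNO in alcohol drinkers (Aif1 0.060, P2ry12 0.049) and for CNO in water drinkers (P2ry12 0.021). It also differed for CNO averaged (P2ry12 0.035) and for alcohol under vehicle (Aif1 -0.13, Trem2 -0.037, Cd68 -0.020). The same held for alcohol under CNO (Tmem119 -0.0098, Trem2 -0.014, Tyrobp -0.017) and for alcohol averaged (Trem2 -0.026). Further changes of sign came for the interaction (Cx3cr1 0.037, Csf1r 0.034, Trem2 0.023, Cd68 0.043). Without alcohol vehicle replicates 5 and 10 the sign of the log2 fold change differed for CNO in alcohol drinkers (Aif1 0.12, Cx3cr1 0.083, P2ry12 0.13, Csf1r 0.0069) and for CNO averaged (P2ry12 0.061). Further changes of sign came for alcohol under vehicle (Aif1 -0.24, Cx3cr1 -0.067, P2ry12 -0.033, Tmem119 -0.077, Trem2 -0.18, Tyrobp -0.11, Ctss -0.14, Cd68 -0.021) and for alcohol averaged (Tmem119 -0.018, Trem2 -0.075, Tyrobp -0.020, Ctss -0.034). It also differed for the interaction (Cx3cr1 0.18, Tmem119 0.12, Csf1r 0.13, Trem2 0.20, Tyrobp 0.18, Ctss 0.21, Cd68 0.048). Without water vehicle replicate 9 as well the sign of the log2 fold change differed for CNO in alcohol drinkers (Aif1 0.11, Cx3cr1 0.081, P2ry12 0.13, Csf1r 0.0044) and for CNO averaged (Cx3cr1 0.011, P2ry12 0.061). Further changes of sign came for alcohol under vehicle (Aif1 -0.18, Cx3cr1 -0.026, P2ry12 -0.031, Tmem119 -0.0010, Trem2 -0.12, Tyrobp -0.058, Ctss -0.059, Cd68 -0.00079) and for alcohol averaged (Trem2 -0.051). It also differed for the interaction (Cx3cr1 0.14, Tmem119 0.040, Csf1r 0.074, Trem2 0.15, Tyrobp 0.12, Ctss 0.13, Cd68 0.024). With each library left out in turn, log2 fold changes crossed 0 in these ranges. For CNO in alcohol drinkers P2ry12 ranged from -0.051 to 0.079. For CNO in water drinkers P2ry12 ranged from -0.054 to 0.023. For CNO averaged P2ry12 ranged from -0.031 to 0.034. For alcohol under vehicle Aif1 ranged from -0.12 to 0.098, Trem2 ranged from -0.095 to 0.13, Tyrobp ranged from -0.0035 to 0.28 and Cd68 ranged from -0.011 to 0.065. For alcohol under CNO Tmem119 ranged from -0.0055 to 0.067, Trem2 ranged from -0.033 to 0.068, Ctss ranged from -0.011 to 0.13 and Cd68 ranged from -0.0016 to 0.055. For alcohol averaged Trem2 ranged from -0.036 to 0.079. For the interaction Cx3cr1 ranged from -0.098 to 0.088, P2ry12 ranged from -0.040 to 0.089, Csf1r ranged from -0.091 to 0.059, Trem2 ranged from -0.11 to 0.12, Tyrobp ranged from -0.22 to 0.069 and Cd68 ranged from -0.041 to 0.035. The median of the members for CNO in alcohol drinkers was -0.016 without replicates 5 and 10, and for alcohol under vehicle it was -0.077. Over all genes, CNO in alcohol drinkers had between 0 and 240 calls when 1 library was left out, with 0 without alcohol vehicle replicate 5, between 1 (without water vehicle replicate 9) and 18 for CNO in water drinkers, and between 98 and 204 for CNO averaged. DESeq2 called 179, 25 and 204 genes in these contrasts, voom 0, 0 and 46, the fit without alcohol vehicle replicates 5 and 10 called 0, 55 and 73, and that without water vehicle replicate 9 as well 0, 29 and 61. With the S-number block the numbers were 0, 4 and 120, with the no-feature share 19, 5 and 152, and with no filter 221, 9 and 160. Only the groups compared gave 0 in alcohol and 24 in water drinkers. For alcohol, DESeq2 called 3 genes under vehicle, 0 under CNO and 11 averaged, and voom 0, 1 and 7. No paired analysis was possible because the labels number no mice across groups. The lowest count of any member in any library was 174 reads (Aif1).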

Other observations

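Set against P2ry12 in the same library, Ctss had higher medians in the vehicle groups, and it was not alone among the members. The log2 ratio of Ctss to P2ry12 had medians of 0.56 in alcohol CNO (range 0.041 to 1.09), 1.06 in alcohol vehicle (0.48 to 2.44), 0.65 in water CNO (0.16 to 1.04) and 0.91 in water vehicle mice (0.53 to 1.63). The 4 ranges overlapped, and the ratio was not tested. For Cd68 the medians of the same log2 ratio were -1.82, -1.78, -1.81 and -1.66 in that order. They were -1.93, -1.56, -1.83 and -1.61 for Trem2, and -1.71, -1.34, -1.60 and -1.49 for Tyrobp. The median for Csf1r in water drinkers went the other way (1.21 with CNO, 1.20 with vehicle).

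Libraries at the low end were not the same for all genes. Alcohol CNO replicate 7 was among the 5 lowest libraries for 5 members and the lowest for Trem2 and Cd68. Water CNO replicate 10 was the lowest for Cx3cr1 (48.7 CPM) and the fifth highest for Aif1 (15.0 CPM). Alcohol vehicle replicate 6 had the lowest P2ry12 (36.4 CPM) and the fifth highest Cd68.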
